A study of Mus musculus with 8 samples.

Results

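This account describes 10 voltage-gated calcium channel genes (Cacna1a, Cacna1b, Cacna1c, Cacna1d, Cacna1e, Cacna1g, Cacna1h, Cacna1i, Cacna2d1 and Cacna2d3) in single nuclei of mouse forebrain. The genes were chosen by symbol from the 54232 genes of the count matrices. No measured value was a criterion, but earlier results of these data were known when the genes were chosen. Nuclei came from the tissue around the lesion site in male Swiss Webster mice aged 10 weeks, as 8 libraries with 2 labelled biological replicates in each of 4 groups. The groups were control, BCAS (a surgery that the labels name only by this abbreviation and the study's title ties to cerebral hypoperfusion), TBI (traumatic brain injury) and BCAS+TBI. The mice carried no labelled genetic change, and the interval from surgery to collection is not given in the sources used here. The design asks what each surgery did alone and whether hypoperfusion changed the response to injury.

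Voltage-gated calcium channels open when the membrane depolarises and let calcium into the cell, where it triggers transmitter release, gene transcription and changes in excitability. The Cacna1 genes encode the pore. Cacna1c and Cacna1d encode L-type pores, known for coupling activity to transcription. Cacna1a (P/Q-type) and Cacna1b (N-type) encode the main pores at presynaptic terminals, and Cacna1e encodes the R-type pore. Cacna1g, Cacna1h and Cacna1i encode T-type pores, which open near rest and support burst firing, as in thalamic relay cells. Cacna2d1 and Cacna2d3 encode alpha-2-delta subunits, extracellular partners that carry the pore to the surface. The Cacna2d1 product is a binding site of gabapentin.

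Nuclei were sorted into 20 types by UMIs (unique molecular identifiers, 1 per captured RNA molecule) of marker genes, none of which was a calcium channel gene. There were 12 neuron types and 8 non-neuronal types, and each name below stands for a marker gate. Of 48468 nuclei kept, 29570 (61.0%) entered a type, 20582 of them neurons. Every type had between 21 and 1670 nuclei in each library. Of the 70 further markers kept out of the gates, 66 were at least 2-fold higher in their own type than in the nuclei it was compared with. The exceptions were 1 marker each in upper-layer, Rorb mid-layer, hippocampal and striatal nuclei. Libraries held 28118725 to 56135192 UMIs, and 289 of 53098 barcode sequences occurred in more than 1 library. By total UMIs the libraries fell into 2 sets, with every group split between them: control 1, BCAS 1, TBI 1 and BCAS+TBI 2 (set 1, shallower) and the other 4 (set 2). Levels are given as CPM, the UMIs of a gene per 1000000 UMIs of that type in that library, as mean ± SD over the 8 libraries unless a group is named.

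The 10 genes are long, with spans of 59.5 to 816.9 kb in the GENCODE M21 annotation of the GRCm38 build. Cacna2d3 lies on chromosome 14 (28904943 to 29721864, minus strand), and Cacna1d lies 318.1 kb away on the same strand (30039939 to 30491455). Cacna2d1 lies on chromosome 5 (15934691 to 16374511, plus strand). Cacna1c lies on chromosome 6 (118587240 to 119196418, minus strand), and its span overlaps 1 other protein-coding gene, Dcp1b. Cacna1g lies on chromosome 11 (94408391 to 94474198, minus strand) and Cacna1e on chromosome 1 (154390731 to 154884501, minus strand), and neither span overlaps another annotated gene. UMIs in nuclei include unspliced RNA when introns are counted, and that setting is not given in the sources used here. Levels of different genes were ranked per 100 kb of span, a scale that presumes counted introns. On that scale, over all gated neurons, Cacna1a was at 224.0 ± 13.7, Cacna2d1 at 180.1 ± 13.4, Cacna1b at 168.1 ± 22.8 and Cacna1c at 127.4 ± 19.1 CPM per 100 kb (n = 8). Cacna1e, Cacna1g, Cacna2d3 and Cacna1d followed at 106.6, 90.5, 87.3 and 84.8 CPM per 100 kb. Cacna1i and Cacna1h were lowest, at 44.1 ± 4.90 and 36.6 ± 1.97 CPM per 100 kb. The order depends on the division by span. Without it Cacna2d1, Cacna1c, Cacna2d3 and Cacna1a were highest, at 792, 776, 713 and 564 CPM.

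**Figure D1:**
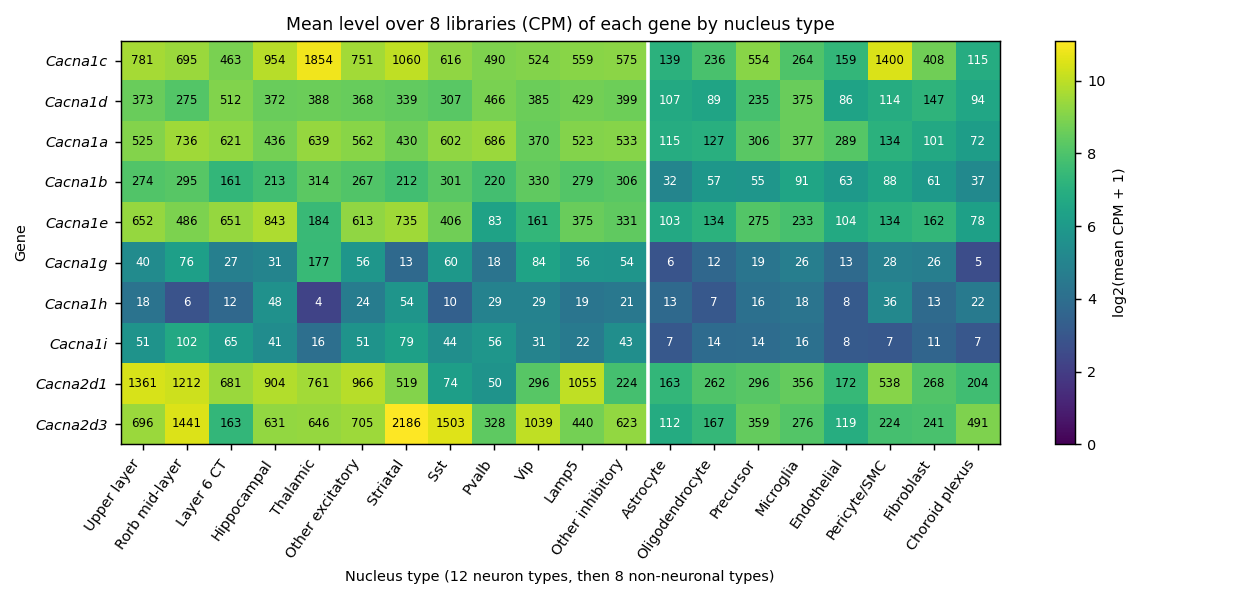
Mean level over 8 libraries of each calcium channel gene (rows) in each nucleus type (columns). Printed numbers are CPM and colour is log2(mean CPM + 1); the white line parts the 12 neuron types from the 8 non-neuronal types. Cacna2d1 spans 50 CPM in Pvalb nuclei to 1361 CPM in upper-layer nuclei, and Cacna1a stays between 370 and 736 CPM over the neuron types.

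Each neuron type was set against the mean of the other 11 with edgeR's quasi-likelihood test on summed counts, with library as a block. Of the 120 gene-type pairs, 50 were higher and 40 lower at a Benjamini-Hochberg adjusted p under 0.05. The same test called 20.1% of all 133596 gene-type pairs higher and 17.6% lower, against 41.7% and 33.3% of the calcium channel pairs. The alpha-2-delta gene Cacna2d1 differed most between types, with log2 differences that ranged over 5.45, and Cacna1g, Cacna1h, Cacna2d3 and Cacna1e ranged over 4.21, 4.15, 4.12 and 3.77. Cacna1i ranged over 2.85, Cacna1c over 2.18, Cacna1a over 1.22, Cacna1b over 1.05 and Cacna1d over 0.92. The median range over the 11133 genes tested was 1.13, so the presynaptic pores and Cacna1d differed between neuron types about as much as a typical gene did.

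**Figure D2:**
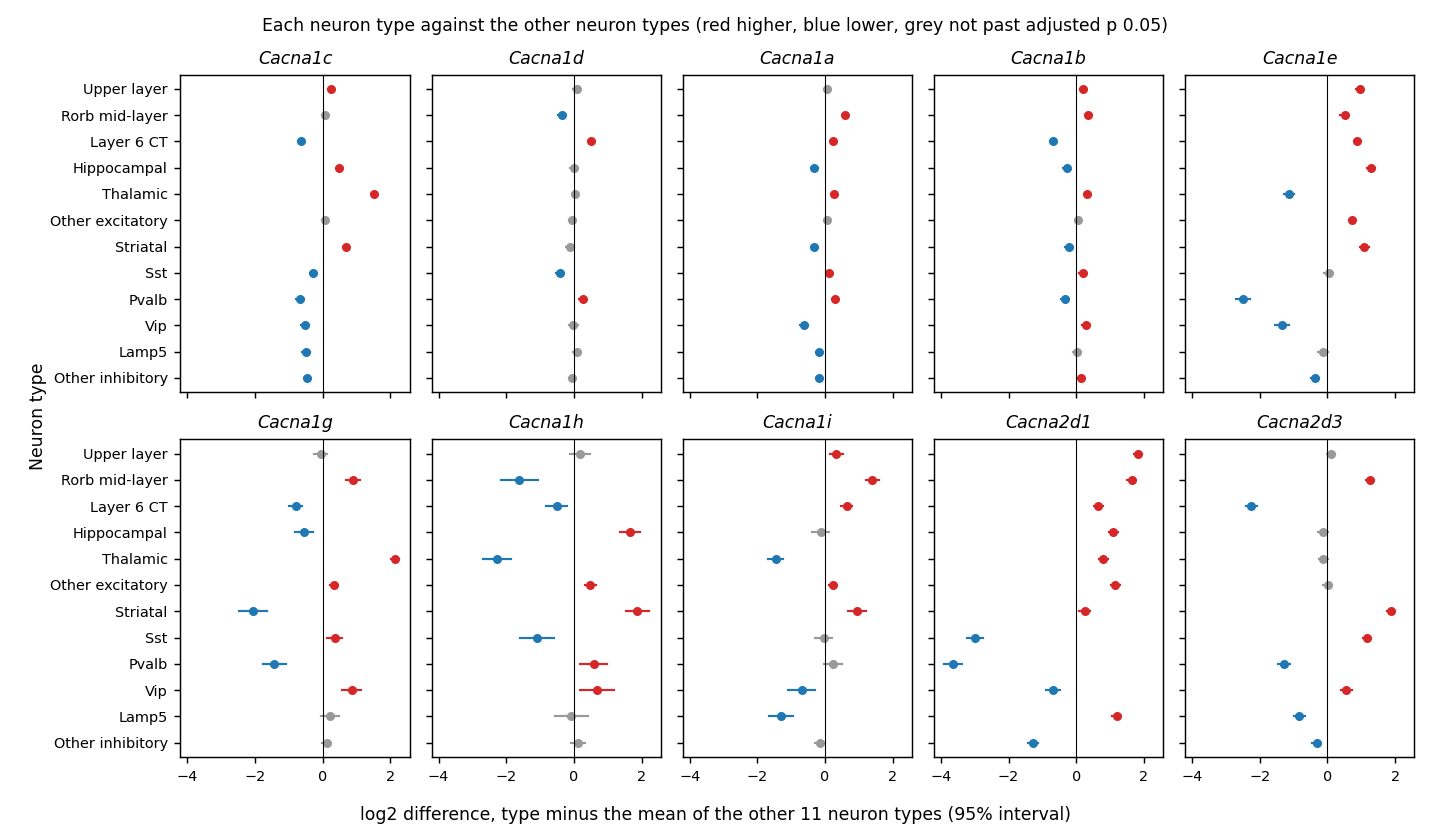
Log2 difference (x axis) of each calcium channel gene between 1 neuron type (y axis) and the mean of the other 11, with 95% intervals; red is higher, blue lower and grey not past an adjusted p of 0.05 in edgeR. Cacna2d1 reaches -3.63 in Pvalb nuclei, and the points of Cacna1b go no lower than -0.69, in layer 6 nuclei.

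Cacna2d1 was high in cortical excitatory nuclei and low in Pvalb and Sst interneurons. In upper-layer nuclei it was at 1361 ± 121 CPM (lowest 1160, median 1426, highest 1465), and in Rorb mid-layer nuclei at 1212 ± 153 CPM (lowest 899, median 1280, highest 1330). In Pvalb nuclei it was at 50.3 ± 27.9 CPM (lowest 21.3, median 45.2, highest 109.2) and in Sst nuclei at 74.1 ± 33.0 CPM (lowest 34.6, median 82.1, highest 110.4). The highest Pvalb or Sst library was thus far below the lowest upper-layer library. Interneurons were not uniform, since Lamp5 nuclei, which mark mainly neurogliaform cells, held 1055 ± 168 CPM and Vip nuclei 296 ± 74.5 CPM. Interneuron gates asked for 1 UMI of a single marker. Only 195 of 443 Lamp5 and 190 of 455 Pvalb nuclei stayed in a stricter gate, where these 2 types were not tested. The log2 differences were 1.81 ± 0.06 (SE) in upper-layer, 1.64 ± 0.07 in Rorb, 1.19 ± 0.07 in Lamp5, -2.999 ± 0.12 in Sst and -3.63 ± 0.13 in Pvalb nuclei. All 12 pairs of Cacna2d1 passed, 8 higher and 4 lower, the lower ones being Sst, Pvalb, Vip and other inhibitory nuclei. The smallest of the 12, striatal nuclei (0.25 ± 0.08), was not called without control 2 (0.15), TBI 1 (0.20) or BCAS+TBI 2 (0.21). With a stricter gate it was 0.05 and not called. That fit had no Pvalb or Lamp5 nuclei in the mean of the other types, so its value is not the same comparison.

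Cacna2d3 had another distribution. It was highest in striatal projection nuclei, at 2186 ± 361 CPM (lowest 1752, median 2230, highest 2670 CPM). Sst nuclei, low in Cacna2d1, held 1503 ± 242 CPM of Cacna2d3 (lowest 1197, median 1554, highest 1822), and Rorb nuclei held 1441 ± 224 CPM. Layer 6 corticothalamic nuclei were lowest among neurons at 163 ± 43.2 CPM (lowest 95.4, median 151.0, highest 225.1), with Pvalb nuclei at 328 ± 68.5 CPM. The log2 differences were 1.86 ± 0.06 in striatal, 1.26 ± 0.06 in Rorb, 1.16 ± 0.06 in Sst, -1.29 ± 0.09 in Pvalb and -2.25 ± 0.08 in layer 6 nuclei (SE), each past the threshold. Pvalb nuclei were thus low in both alpha-2-delta members, whereas Sst and layer 6 nuclei were each high in one and low in the other.

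**Figure D3:**
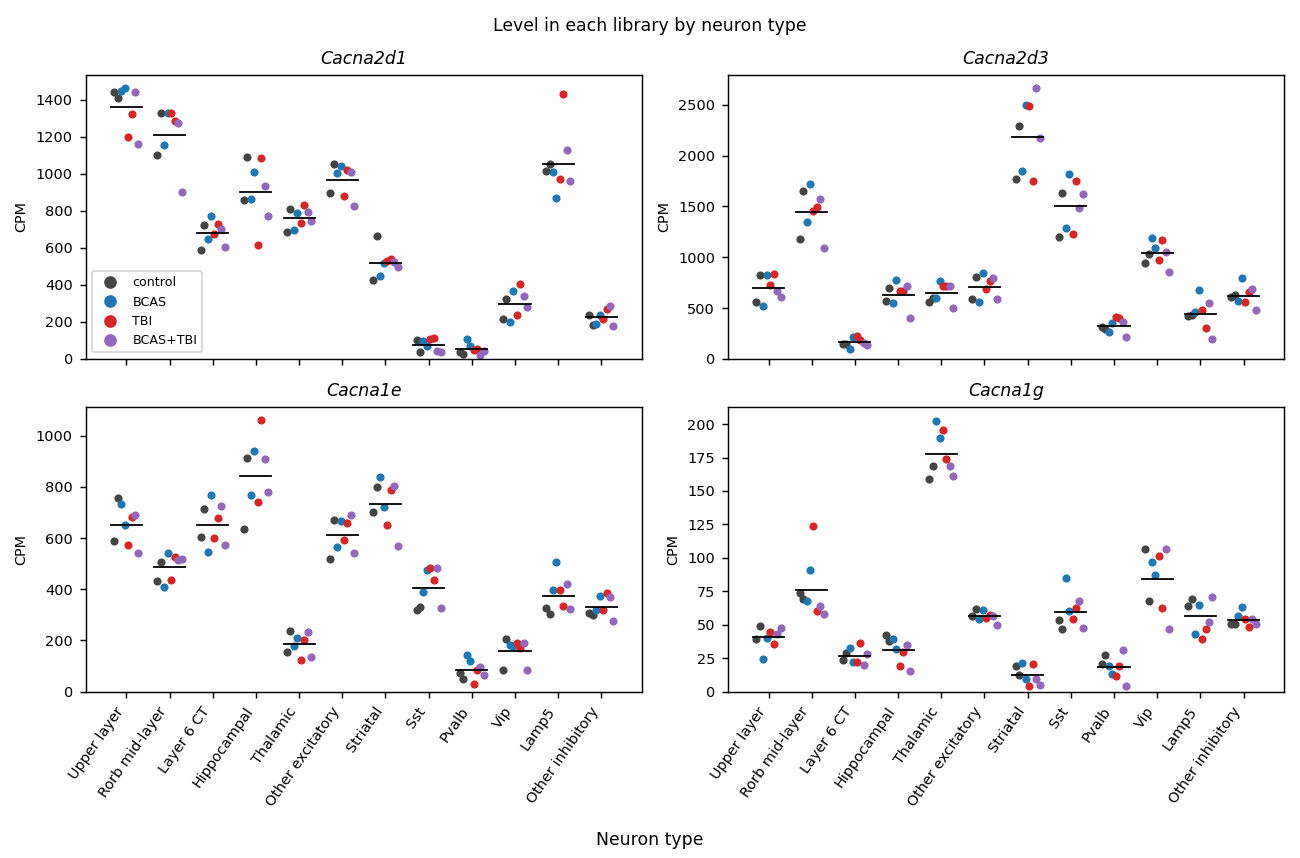
CPM (y axis, from 0) of Cacna2d1, Cacna2d3, Cacna1e and Cacna1g in each of the 8 libraries by neuron type (x axis); points are libraries coloured by group and lines are means. The 8 thalamic libraries sit between 159 and 203 CPM of Cacna1g, above every library of the other neuron types, which reach 124.2 CPM.

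Among the T-type pores, each gene had its own leading types. Cacna1g, a burst-firing pore of thalamic relay cells, was at 177 ± 16.4 CPM in thalamic nuclei (lowest 158.9, median 171.5, highest 202.6). The next type in order, Vip interneurons, was at 84.5 ± 22.7 CPM, and striatal and Pvalb nuclei were at 12.7 ± 6.94 and 18.2 ± 8.48 CPM. Its log2 difference was 2.14 ± 0.06 (SE) in thalamic and -2.07 ± 0.21 in striatal nuclei. Cacna1i was led by Rorb nuclei at 102 ± 7.14 CPM and striatal nuclei at 79.3 ± 17.2 CPM, while thalamic excitatory nuclei were at 15.8 ± 7.42 CPM. Its log2 difference was 1.39 ± 0.10 in Rorb and -1.46 ± 0.12 in thalamic nuclei. Cacna1h, the sparsest member, was at 53.6 ± 13.9 CPM in striatal and 48.3 ± 11.3 CPM in hippocampal nuclei, which rested on 170 and 235 UMIs over all libraries. In thalamic nuclei it was at 3.71 ± 2.47 CPM, from 44 UMIs. Its log2 differences were 1.87 ± 0.17, 1.65 ± 0.15 and -2.28 ± 0.21 in those 3 types, so thalamic excitatory nuclei were high in Cacna1g and low in both other T-type genes.

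The R-type pore gene Cacna1e was highest in hippocampal nuclei at 843 ± 136 CPM and in striatal nuclei at 735 ± 91.2 CPM. It was lowest among neurons in Pvalb nuclei at 82.8 ± 37.4 CPM (lowest 31.6, median 78.0, highest 144.5), followed by Vip nuclei at 161 ± 48.5 and thalamic nuclei at 184 ± 43.0 CPM. The log2 differences were 1.28 ± 0.06 in hippocampal, 1.09 ± 0.06 in striatal, -1.13 ± 0.07 in thalamic, -1.35 ± 0.10 in Vip and -2.49 ± 0.10 in Pvalb nuclei (SE). Pvalb nuclei, the fast-spiking interneurons, thus held low Cacna1e, Cacna2d1, Cacna2d3 and Cacna1g while their Cacna1a was 686 ± 72.4 CPM, 0.29 ± 0.05 above the other types on the log2 scale.

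Of the L-type pair, Cacna1c was highest in thalamic nuclei at 1854 ± 280 CPM (lowest 1470.2, median 1885, highest 2234), followed among neurons by striatal nuclei at 1060.3 ± 161 and hippocampal nuclei at 954 ± 156 CPM. The log2 difference was 1.51 ± 0.04 (SE) in thalamic and 0.69 ± 0.05 in striatal nuclei. The 6 lower types, between -0.28 and -0.67, were layer 6, Sst, Pvalb, Vip, Lamp5 and other inhibitory nuclei. Cacna1d varied less, from 275 ± 70.7 CPM in Rorb to 512 ± 60.4 CPM in layer 6 nuclei. Only 4 of its 12 pairs passed: layer 6 (0.51 ± 0.05) and Pvalb nuclei (0.25 ± 0.06) were higher, and Rorb (-0.34 ± 0.06) and Sst nuclei (-0.40 ± 0.06) were lower.

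The presynaptic pores were broad. Cacna1a ran from 370 ± 74.1 CPM in Vip to 736 ± 83.1 CPM in Rorb nuclei, with log2 differences of -0.62 ± 0.06 and 0.60 ± 0.05 (SE). Cacna1b ran from 161 ± 20.1 CPM in layer 6 to 330 ± 54.4 CPM in Vip nuclei, with log2 differences of -0.69 ± 0.05 and 0.28 ± 0.06. Without the filter on low counts the Vip difference was 0.17 and was not called. Vip nuclei thus had the lowest mean CPM of Cacna1a and the highest of Cacna1b among neurons.

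The order of types was also tested between neighbours, by an exact two-sided sign-flip permutation over the 8 libraries on log2(CPM + 1). None of the 190 neighbour pairs passed, with a smallest adjusted p of 0.106. The smallest exact p that 8 libraries allow is 0.0078, and 30 pairs would have had to reach it for any to pass, so this test says little about single neighbours. In 14 pairs the order held in all 8 libraries. Thalamic nuclei were above Vip nuclei for Cacna1g by 1.11 ± 0.40 and Rorb above Vip nuclei for Cacna2d3 by 0.46 ± 0.19 on the log2 scale (SD over the 8 libraries). In the other pairs at least 1 library went against the order or tied.

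Within the pooled gates, finer markers parted some nuclei, in numbers too small in some libraries for a test (as few as 10). In Drd1 nuclei (direct pathway) Cacna2d3 was at 2471 ± 385 CPM and in Drd2 nuclei (indirect pathway) at 1955 ± 282 CPM, whereas Cacna1e was at 616 ± 79.7 and 888 ± 117 CPM. In dentate granule nuclei Cacna1c was at 1097 ± 166 and in CA pyramidal nuclei at 767 ± 178 CPM, whereas Cacna2d3 was at 472 ± 98.7 and 858 ± 243 CPM. These are levels, with no test of the differences.

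Of 16 other subunit genes, 10 passed the filter on low counts in the comparison of neuron types, and 44 of their 120 pairs were higher and 45 lower. The 3 pairs with the smallest p were Cacna2d2, a further alpha-2-delta gene, in other inhibitory nuclei (log2 2.26 ± 0.08, SE), Cacng3, an auxiliary subunit of AMPA receptors, in upper-layer nuclei (1.83 ± 0.06), and Cacna2d2 in Pvalb nuclei (3.05 ± 0.11). Cacna2d2 was thus high in both types where the members Cacna2d1 and Cacna2d3 were each called lower. Other inhibitory nuclei were at -1.27 ± 0.08 for Cacna2d1 and -0.32 for Cacna2d3, beside the larger differences of Pvalb nuclei given above. Cacna2d2 was also called higher in Sst (2.28 ± 0.12) and striatal nuclei (1.45 ± 0.17). In those types Cacna2d3 was called higher too (1.16 and 1.86), as was Cacna2d1 in striatal nuclei (0.25). Of 29 genes for channel partners and calcium handling, 28 passed the filter, and 130 of their 336 pairs were higher and 120 lower. Their 3 smallest p-values belonged to Camk2a, a calcium-dependent kinase, in upper-layer nuclei (1.32 ± 0.04), Ryr2, a calcium release channel, in thalamic nuclei (-1.98 ± 0.07), and Ppp3ca, the catalytic subunit of calcineurin, in hippocampal nuclei (1.25 ± 0.04). Both lists, like the members, were called more often than the 20.1% higher and 17.6% lower of all pairs.

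Genes with the most similar pattern were ranked by Pearson's r of log2(mean CPM + 1) over the 20 types, as a description. All types come from the same libraries and differ in depth, so r is partly set by the contrast of neurons with other nuclei. Cacna1b was closest to Meg3 (r = 0.98), Slc12a5 (0.98) and Mtus2 (0.97), and Cacna1a to Lrrfip1, Syn1 and Sgsm1 (0.94 to 0.93). Cacna1e was closest to Syt16 (0.94), Cacna1i to Stxbp5l (0.93), Cacna1g to Cpne4 (0.93), Cacna1c to Grm7 (0.88), Cacna2d1 to Mlip (0.84) and Cacna1h to Fbxl15 (0.76). The gene closest to Cacna2d3, Lrtm1 (0.96), lies within the Cacna2d3 span, and the counting settings for overlapping genes are not given in the sources used here. Between the alpha-2-delta members themselves r was 0.25, and between Cacna1a and Cacna1b it was 0.86.

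Non-neuronal nuclei held RNA of neuron genes, so each member was set against it. In each library, a member's level in a type as a ratio of its level in all gated neurons was compared with the highest of the same ratios for Rbfox3, Snap25 and Syt1, which neurons express. The highest ratio averaged 18.3 ± 9.19% in astrocytes, 43.7 ± 13.0% in microglia and 39.9 ± 20.8% in pericyte and smooth muscle nuclei. Of 80 pairs, 13 were above it in all 8 libraries (exact sign-flip permutation p = 0.0078, adjusted p = 0.037), and none of these was in oligodendrocytes. With 8 libraries the test passes only where at least 13 pairs reach the smallest p together, and 17 did, the other 4 being below the reference. Without any 1 library no pair passed, since with 7 libraries 26 pairs would be needed at the smallest p (0.0156). The test was chosen after the levels were seen. It was run for the members only, so whether 13 of 80 differs from the share over all genes was not tested.

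In pericyte and smooth muscle nuclei Cacna1c, the pore of vascular L-type channels, was at 1400.1 ± 397 CPM, 179 ± 38.7% of its level in neurons, and Cacna2d1 at 538 ± 211 CPM (69.2 ± 30.3%). Choroid plexus nuclei held Cacna2d3 at 491 ± 63.1 CPM (70.0 ± 12.8%, against a reference of 21.6 ± 7.07%). Oligodendrocyte precursors had 6 of the 13 pairs: Cacna1c at 554 ± 123 CPM (71.0 ± 9.21% of the neuron level), Cacna1d (61.5 ± 7.16%), Cacna1a (54.4 ± 5.51%), Cacna1e (52.3 ± 6.86%), Cacna2d3 (50.8 ± 9.18%) and Cacna1h (74.5 ± 24.1%, from 44 UMIs), against a reference of 33.3 ± 5.22%. Cacna1d was at 375 ± 102 CPM in microglia (96.8 ± 18.4%) and 147 ± 40.9 CPM in fibroblasts (37.9 ± 7.79%). Cacna1a was at 289 ± 63.3 CPM in endothelial nuclei (51.3 ± 12.1%), and Cacna1h at 12.9 ± 6.08 CPM in astrocytes (59.9 ± 30.5%, from 89 UMIs). Cacna1b, Cacna1g and Cacna1i were above the reference in no type by this test.

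**Figure D4:**
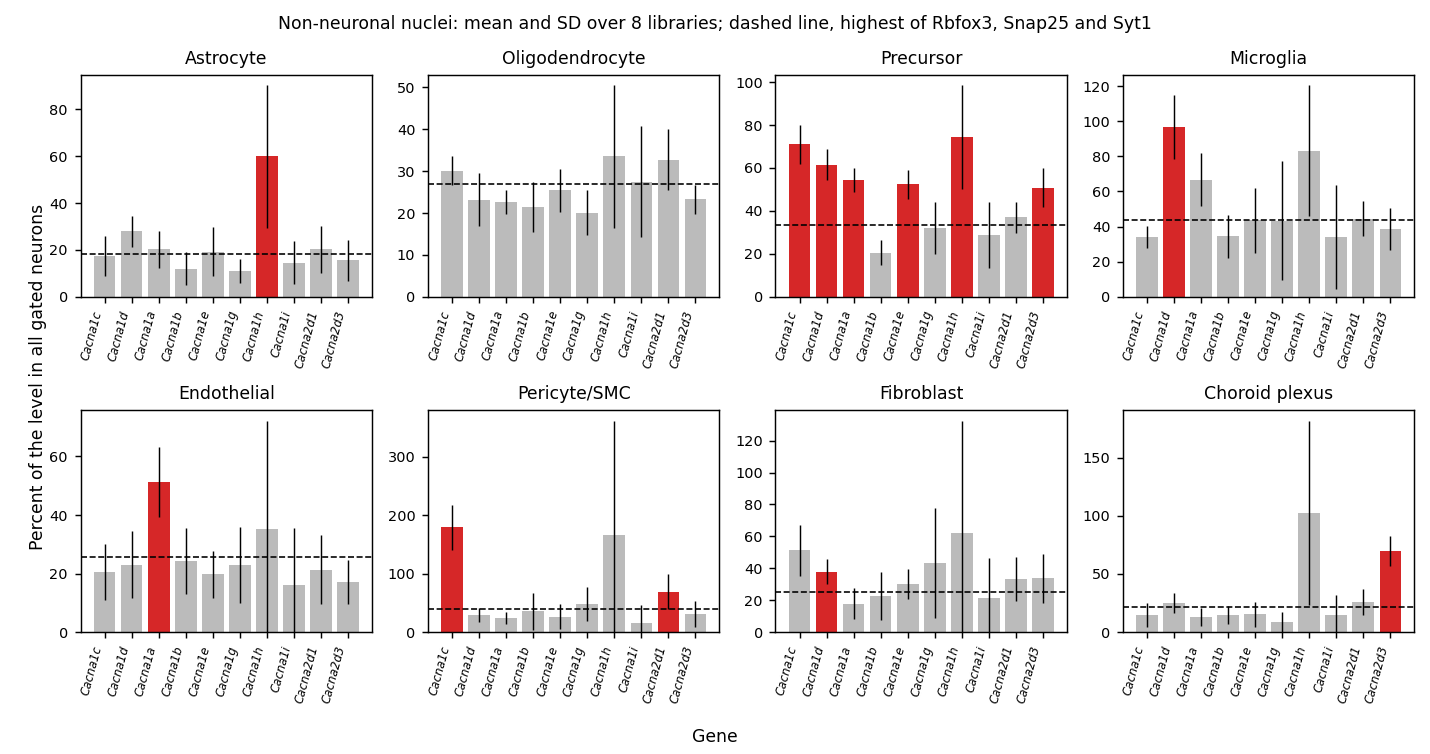
Level of each calcium channel gene in 8 non-neuronal types as a percent of its level in all gated neurons (bars, mean; error bars, SD over 8 libraries). The dashed line is the mean of the highest percent among Rbfox3, Snap25 and Syt1, and red bars are above it in all 8 libraries; Cacna1c in pericyte and smooth muscle nuclei reaches 179%.

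Before the surgery comparisons, the 2 library sets, parted by total UMIs alone, were compared in all gated neurons. Cacna1d was at 343 ± 21.5 CPM in set 1 and 423 ± 10.2 CPM in set 2 (n = 4 each), Cacna1e at 483 ± 20.2 and 569.8 ± 10.4, and Cacna2d3 at 631 ± 64.8 and 795 ± 52.5 CPM. For those genes, Cacna1i and Cacna2d1 every set 2 library was above every set 1 library, 5 of the 10 members, against 31.2% of 7194 genes (mean of at least 20 CPM). For these 5 the exact two-sided permutation p was 0.0286, the smallest that 4 against 4 allow, and the adjusted p was 0.0442 over all 7194 genes and 0.0571 over the 10 members alone, so the call depends on what it is adjusted over. The other 5 members overlapped between the sets. Below set 1 without overlap were 0 members and 33.5% of all genes. The sets cut across the groups, so a difference between sets adds to the spread between the libraries of a group.

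No member was called in any surgery contrast. Members passed the filter on low counts in 167 gene-type pairs, from 8 of 20 types for Cacna1h to all 20 for Cacna1c, Cacna1e, Cacna2d1 and Cacna2d3. Across the 7 contrasts, edgeR's quasi-likelihood test called 0 of these 167 pairs at an adjusted p under 0.05, and 0% of all 164357 gene-type pairs. At an unadjusted p under 0.05 it gave 1 to 7 member pairs per contrast, 0.60 to 4.2% of them beside 0.82 to 1.04% of all pairs, and DESeq2 gave 0 to 5 with no call. With the library set as a further term the smallest adjusted p among members was 0.268, no member was called, and few of all pairs were. At an unadjusted p under 0.05 that fit gave 4 to 21 member pairs per contrast. These were 10.8% of member pairs for TBI against control (4.09% of all pairs) and 12.6% for the interaction (4.77% of all pairs). They were 2.40% for TBI averaged over BCAS (4.39% of all pairs) and 3.59% for BCAS averaged over TBI (3.76% of all pairs). The remaining contrasts gave 6.59 to 10.2% of member pairs and 3.86 to 4.55% of all pairs. Calls at an adjusted p under 0.05 in that fit were few. Set against control, TBI gave 0.0183%, BCAS 0.0073% and BCAS+TBI 0.00852% of all pairs. The comparison of BCAS+TBI with TBI gave 0.0128%, each averaged contrast 0.011% and the interaction 0.00973%. The precision sets what this shows. For TBI averaged over BCAS, the median 95% interval of a member reached 0.47 to either side on the log2 scale in other excitatory nuclei (0.14 with the library set) and 0.98 in astrocytes. Gfap, a gene that injury is known to raise in astrocytes, was 1.01 ± 0.39 (SE) higher there with TBI and was not called either (edgeR adjusted p = 1.00).

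Levels in all gated neurons follow for 3 members, Cacna1a, Cacna1c and Cacna2d1. In each group the library of set 1 is given first and that of set 2 second. Cacna1a was at 528 and 589.8 CPM in control, 528 and 600.4 in BCAS, 584 and 593 in TBI, and 515 and 574 in BCAS+TBI. Within both sets TBI was above and BCAS+TBI below the control library, with 1 library of each group per set. Cacna1c was at 652 and 769 CPM in control, 673 and 915 in BCAS, 780 and 904 in TBI, and 632 and 887 in BCAS+TBI. Within both sets BCAS and TBI were above control, whereas BCAS+TBI was below it in set 1 and above it in set 2. Cacna2d1 was at 744 and 849 CPM in control, 806 and 816 in BCAS, 722 and 857 in TBI, and 709 and 834 in BCAS+TBI. Within both sets BCAS+TBI was below control, and the other groups went both ways. Over both sets, TBI was apart from control only for Cacna1c, and every other group of these 3 genes overlapped control. The share of all genes parted in this way, with 2 libraries per group, was not computed, so no surgery effect is read from it.

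**Figure D5:**
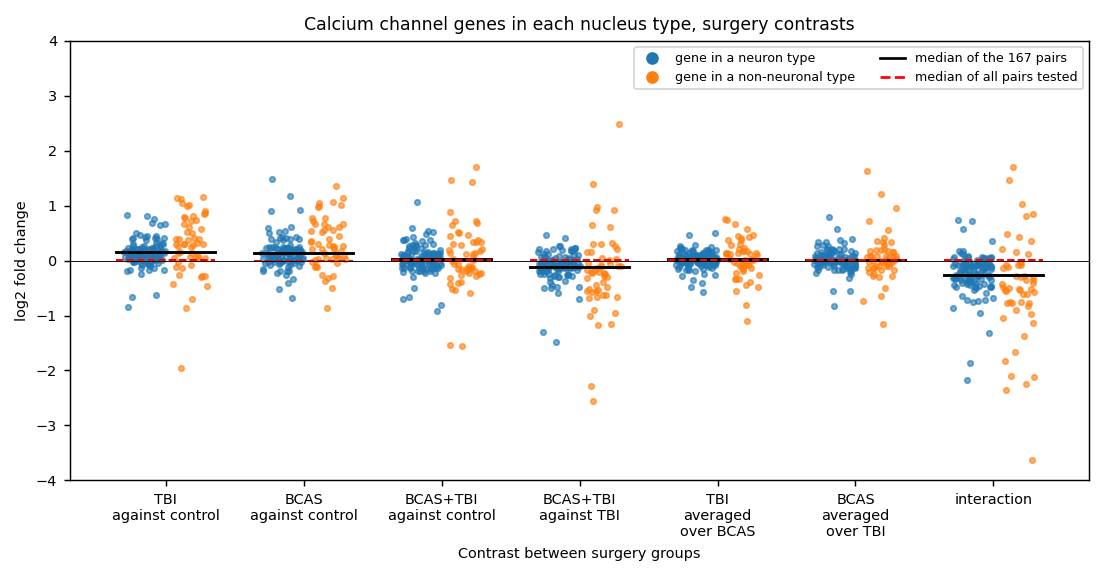
Log2 fold change (y axis) of each calcium channel gene in each neuron type (blue) and non-neuronal type (orange) for 7 contrasts (x axis) in edgeR. The black line is the median of the 167 pairs and the red dashed line that of all 164357 pairs; no point passed an adjusted p of 0.05, and the black line of the interaction lies at -0.26.

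As a list, the members leaned upward with each surgery alone when set against control. The median log2 fold change over the 167 pairs was 0.15 for TBI against control (128 of 167 above 0) and 0.15 for BCAS against control (129 of 167), beside medians of 0.00 over all pairs tested. For BCAS+TBI against control it was 0.02 (90 of 167), and for BCAS+TBI against TBI -0.11 (50 of 167). The averaged contrasts showed little lean, with 0.03 for TBI averaged over BCAS (93 of 167) and 0.01 for BCAS averaged over TBI (88 of 167). The interaction, the response to both surgeries less the sum of the responses to each, had a median of -0.26 (32 of 167 above 0), beside 0.01 over all pairs. Its median was -0.06 over pairs of the other subunits and -0.09 over pairs of the partners and calcium handling genes. The first 3 contrasts share the control libraries, and the averaged contrasts and the interaction use all libraries, so these medians are not independent of each other. Types of a library are not independent either, and no single pair passed. In neuron types alone the interaction median was -0.19 (21 of 113 pairs above 0). Pairs of other genes with spans at least as long as the shortest member had an interaction median of -0.04, and shorter genes 0.05. For TBI and BCAS against control the longer genes had medians of 0.01 and 0.02, and the shorter ones 0.0005 and -0.02. The longer genes were not matched to the members in span or level, and the part of span was not tested.

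Without the library set in the model, the smallest p of each contrast belonged to Cacna2d1 in choroid plexus, Cacna1c in endothelial or Cacna1i in hippocampal nuclei. With the set it belonged mostly to Pvalb and Sst interneurons. Values are given for replicate 1 and then replicate 2. The member pairs here and in the next paragraph were picked by their small p. Separation of their libraries follows in part from that choice, and its share over all pairs was not computed. Cacna2d1 in choroid plexus nuclei was at 146 and 90.6 CPM in control, 305 and 307 in BCAS, 272 and 247 in TBI, and 139 and 122 in BCAS+TBI, from 253 UMIs in all. Both libraries of each single surgery were above both control and both BCAS+TBI libraries, and the interaction was -2.36 ± 0.49 (SE; unadjusted p = 0.000555, adjusted p = 1.00, edgeR). Genes of neurons moved in part the same way in choroid plexus nuclei. Syt1 was at 664 and 483 CPM in control, 661 and 833 in BCAS, 802 and 938 in TBI, and 458 and 454 in BCAS+TBI. Snap25 ranged over 50.3 to 209 CPM in control, 178 to 265 in BCAS, 174 to 189.5 in TBI, and 90.0 to 149 in BCAS+TBI. Rbfox3 ranged over 10.1 to 54.6 CPM in control, 38.2 to 84.1 in BCAS, 78.7 to 117 in TBI, and 0 to 52.4 in BCAS+TBI, and the part of neuron RNA in the result was not tested. Cacna1c in endothelial nuclei was at 94.8 and 73.6 CPM in control, 133 and 182 in BCAS, 90.0 and 186 in TBI, and 284 and 231 in BCAS+TBI, from 238 UMIs. Its difference between BCAS+TBI and control was 1.71 ± 0.43 (adjusted p = 1.00, edgeR), while Snap25 there was at 301 and 119 CPM in control and 224 and 343 in BCAS+TBI, and Syt1 at 937 and 442 and at 716 and 641 CPM. Rbfox3 there was at 100.4 and 21.03 CPM in control and 49.2 and 67.1 in BCAS+TBI, so control and BCAS+TBI overlapped in all 3 genes. Camk2a, a kinase abundant in excitatory neurons, was 1.81 ± 0.56 higher in the same type and contrast (SE; unadjusted p = 0.0077, adjusted p = 1.00, edgeR), and the part of neuron RNA in the Cacna1c difference was not tested.

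Cacna1i in hippocampal nuclei was at 51.8 and 40.7 CPM in control, 30.6 and 40.3 in BCAS, 55.4 and 63.6 in TBI, and 29.8 and 19.3 in BCAS+TBI, from 187 UMIs. Both BCAS+TBI libraries were below both TBI libraries, with a log2 difference of -1.30 ± 0.39 (SE; unadjusted p = 0.0080, adjusted p = 1.00, edgeR). Cacna2d1 in Pvalb nuclei was at 37.2 and 25.6 CPM in control, 109.2 and 67.9 in BCAS, 47.4 and 51.0 in TBI, and 21.3 and 43.0 in BCAS+TBI, from 165 UMIs. Both BCAS libraries were above all 6 others. With the library set the difference between BCAS and control was 1.45 ± 0.33 (unadjusted p = 0.000119, edgeR adjusted p = 0.268) and the interaction -2.21 ± 0.53 (unadjusted p = 0.000187, adjusted p = 0.277). In Sst nuclei Cacna2d1 was at 101 and 34.6 CPM in control, 94.3 and 70.0 in BCAS, 106 and 110.4 in TBI, and 40.5 and 35.8 in BCAS+TBI. Both BCAS+TBI libraries were below both TBI libraries, with a log2 difference of -1.47 ± 0.34 with the library set (unadjusted p = 0.000248, edgeR adjusted p = 0.464). Cacna1e in Pvalb nuclei was 0.78 ± 0.22 higher with BCAS averaged over TBI, and Cacna1c in fibroblasts 0.71 ± 0.26 higher with TBI averaged over BCAS, in the same fit (adjusted p = 1.00 for both, edgeR).

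Surgery calls appeared only in fits that were added after the data were seen and that left out 1 library. With the library set in the model and the library TBI 1 left out, 14 tests of members passed, 10 of them in astrocytes. Of 174 member pairs, 5 passed when TBI was set against control (0.181% of all pairs), 1 when BCAS was (0.033%), 2 between the double surgery and TBI alone (0.12%) and 6 in the interaction (0.138%). Among these, Cacna2d1 was 1.42 ± 0.22 and Cacna1c 1.68 ± 0.27 higher in TBI than in control astrocytes (SE; edgeR adjusted p = 0.00208 and 0.00347). The TBI arm then held only TBI 2, with an assumed spread like that of the other groups. In astrocyte nuclei of TBI 2 Cacna2d1 was at 365 CPM, against 73.0 to 199 CPM in the other 7 libraries, and Syt1, a neuron gene, was at 1258 CPM against 221 to 557 CPM. Snap25 was at 353 CPM there against 73.9 to 192 CPM and Rbfox3 at 153 against 21.1 to 72.4 CPM, and the part of neuron RNA in these calls was not tested. Leaving out TBI 2 instead gave 2 calls, both of Cacna1e in Pvalb nuclei, beside 0.0389% of all pairs for BCAS against control and 0.0656% for BCAS averaged over TBI. Leaving out control 1 gave 1 call, the interaction of Cacna2d1 in Sst nuclei (-2.66 ± 0.48, adjusted p = 0.00799, edgeR), beside 0.0876% of all pairs.

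The other gene lists gave no surgery call. Of the other subunits, 13 of 16 genes were tested in 127 gene-type pairs, and of the partners and calcium handling genes all 29 in 480 pairs, with 0 calls in each of the 7 contrasts by edgeR or DESeq2. At an unadjusted p under 0.05 edgeR gave 8 of 889 tests of the other subunits and 26 of 3360 of the partners. The smallest p of the first list were those of Cacnb4, a cytoplasmic beta subunit, in microglia (BCAS+TBI against TBI, -0.84 ± 0.32, SE), Cacng5 in Sst nuclei (TBI against control, 1.66 ± 0.65) and Cacng2 in striatal nuclei (TBI against control, 0.86 ± 0.34). All 3 of the second were of Camk2a, in choroid plexus nuclei for TBI against control (2.81 ± 0.69) and the interaction (-3.46 ± 0.99) and in endothelial nuclei as given above.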

How the data were processed

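Raw UMI counts per gene and barcode, deposited by the authors, were made with Cell Ranger 7.0.0 per the submitters' processing notes, which also name Seurat, mm10 and GRCm38; whether introns were counted is not given in the sources used here. A minimum of 500 UMIs and 300 genes and a ceiling of 5% mitochondrial UMIs removed 4922 of 53390 barcodes. Nuclei were gated on marker UMIs, 18843 stayed in no type, and those gated as ependymal (2 to 14 per library) were too few to test. Gate thresholds were set after the data, member levels included, were seen. No doublet caller was run. Gates limited the markers of other classes but did not leave out every nucleus that held some. The highest median of another class's marker set was 3 UMIs, in striatal and fibroblast nuclei. Counts were summed per library and type and tested with edgeR 4.0.16 (TMM, filterByExpr with a minimum count of 10, Benjamini-Hochberg over all gene-type pairs of a contrast) in R 4.3.3. DESeq2 1.42.0 was an alternative. CPM and percent values were computed from the deposited counts, and log2 levels use a pseudocount of 1 CPM. P-values measure the spread between libraries in the comparisons of surgery groups and library sets. In the comparison of neuron types library was a block, and the order and non-neuronal tests used differences taken within each library. There p-values measure how such differences varied from library to library.

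The members and gene lists were chosen with earlier results of these data known. The named surgery pairs are those with the smallest p in a contrast, with or without the library set. The non-neuronal reference, the comparison of library sets, the medians by gene span and the pooled classes were added after the data were seen. Dentate with CA nuclei, and Drd1 with Drd2 nuclei, were pooled because single gates fell under 20 nuclei in a library. The replicate numbers do not pair all groups. The ranking of similar genes is not reported here for Cacna1d.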

Additional observations from a re-analysis of the deposited data

How the results depend on the processing

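Between neuron types, the 50 higher and 40 lower pairs became 42 to 51 and 33 to 42 over the alternatives, and without any 1 library 48 to 50 and 39 to 41. Among values of the 90 called pairs under the alternatives, 1207 kept their call, 30 lost it and 0 changed sign. These counts were first made over all 120 pairs and then limited to the called ones after they were seen. The 30 uncalled pairs gave 51 sign changes and 19 calls among 411 values, so they are reported as a count with no direction. In the surgery contrasts, 0 members were called under another normalization, filter, test, gate or adjustment, with the library set, without any 1 library, or with the replicate block (0 calls). Replicate-1 deviations correlated at 0.71 to 0.75 among control, BCAS and TBI and at -0.75 to -0.80 with BCAS+TBI, so the numbers do not pair the groups. With the library set and 1 library left out, counts ran from 0 to 5 (TBI against control), 0 to 1 (BCAS against control), 0 to 2 (BCAS+TBI against TBI), 0 to 1 (BCAS averaged over TBI) and 0 to 6 (interaction), beside 0.00945 to 0.181% of all pairs over these fits, and the cause was not tested. In non-neuronal nuclei the 13 pairs became 26 with the summed reference, 26 with Syt1 and 14 with Snap25 alone, the 13 among them each time, and 0 without any 1 library, where the smaller design needs more pairs at its smallest p. Rbfox3 alone was not used because a library is at 0. The stricter gate left 76 of the 90 called pairs to test, and thinning to 2000 UMIs left 81. Only 190 of 455 Pvalb and 195 of 443 Lamp5 nuclei stayed in the stricter gate, and the differences of those types were not tested under it. Both types were also missing from the mean that each remaining type was set against there. Depth limits Cacna1g, Cacna1h and Cacna1i most, which were tested for surgery in 11, 8 and 13 of 20 types.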
